A study of Mus musculus with 20 samples.

Results

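The genes described here encode the proteasome and the ubiquitin enzymes that feed it or work against it, read on spotted cDNA arrays of mouse liver and brown adipose tissue (BAT). A gene was a member where a clone carried 1 gene symbol that starts with Psma, Psmb, Psmc, Psmd, Psme or Ube2, or with Usp and a digit. This gave 93 of the 6970 genes on the arrays: 34 under the proteasome names, 23 under Ube2 and 36 under Usp. They were represented by 154 clones, 81 on the first array design and 73 on the second, and each design held 57 of the genes. The first design held 21 proteasome genes and 36 ubiquitin enzymes, the second 18 and 39, and 21 genes were on both. The symbol alone decided whether a gene was a member, but these groups of names were chosen with earlier results of these data known.

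The study compared an F line with a Fob3b line of mice. Mice of the F line were selected for high fatness. The Fob3b line has the F background except at Fob3b, an obesity locus where its alleles come from lean mice. The labels give the line, the tissue and a pool number for each channel, and no age, sex, diet or number of animals per pool. Each line and tissue had 2 pools of total RNA. Pools with the same number, 1 of each line, shared an array in both dye orientations, so n was 2 pool pairs. The first design held 4 such arrays of liver, 4 of BAT and 2 on which 1 liver pool of a line filled both channels. The second held 4 of liver, 2 of BAT from pool pair 1 alone, 2 of liver with pool numbers crossed between the lines and 2 of liver pool 2 over pool 1 within a line. Because animals were pooled, p values measure the spread between pool pairs and not between animals. Values are ratios, which give no level of a gene, so the tissue labels could not be checked against marker levels. In bulk tissue, a change in the number of cells of a type and a change in RNA per cell cannot be told apart.

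The proteasome degrades proteins that carry chains of ubiquitin. Its 20S core is a barrel of alpha subunits (Psma genes) and beta subunits (Psmb genes), some of which hold the protease sites. The 19S cap recognises and unfolds substrates and is built of ATPases (Psmc genes) and non-ATPase subunits (Psmd genes), while the activators (Psme genes) bind the ends of the core in place of the cap. Most Ube2 genes encode conjugating enzymes that carry ubiquitin to a ligase, and most Usp genes encode proteases that take ubiquitin off. Psmc3ip, a cofactor of meiotic recombination, and Psme3ip1, a partner protein of an activator, carry a matching name without being subunits. The assembly chaperones Psmd5, Psmd9 and Psmd10 are counted here with the non-ATPase subunits.

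Each value is the deposited log ratio of the dyes, read as log2, relative to the median clone of its array and turned so that Fob3b stands over F. The labels do not say which dye was the numerator. If red was the numerator, a positive value means more RNA in Fob3b mice. If green was, it means more RNA in F mice, so the direction of every value given here is open to the same turn. Clones of a gene were averaged, and errors are moderated standard errors (SE) of limma with n = 2 pool pairs. These SE draw on the spread of all genes, with 10.25 prior degrees of freedom against 2 residual ones on the first design, and 10.36 against 1 on the second. Array medians before centring ran from -0.82 to 1.40. With no intensities in the values used here, the number of arrays is the limit on precision that can be stated. Over all genes, the turned values of the dye orientations of a pool pair correlated at -0.58 in BAT pool pair 2, -0.21 in BAT pool pair 1, 0.12 in liver pool pair 1 and -0.29 in liver pool pair 2, all on the first design. The second design gave 0.49 in BAT, 0.06 in liver pool pair 1 and 0.34 in liver pool pair 2. Below 0, genes that were high with Fob3b in red tended to be low with Fob3b in green.

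In BAT the proteasome genes lay on the positive side on both designs, and the ubiquitin enzymes lay on both sides in shares near those of all genes. On the first design 20 of 21 proteasome genes had a mean above 0, against 21 of 36 ubiquitin enzymes and 60.2% of all genes. The median log2 ratio was 0.13 for the proteasome, 0.03 for the ubiquitin enzymes and 0.04 for all genes. The second design had 17 of 18 proteasome genes above 0, against 22 of 39 ubiquitin enzymes and 57.5% of all genes, with medians of 0.16, 0.03 and 0.03. Both designs read RNA of BAT pool pair 1, so their values are not independent of each other. The BAT arrays of the second design are described as F against F, whereas their channel labels, used here, give both lines. Each design's count is a description, with no test of the class.

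**Figure D1:**
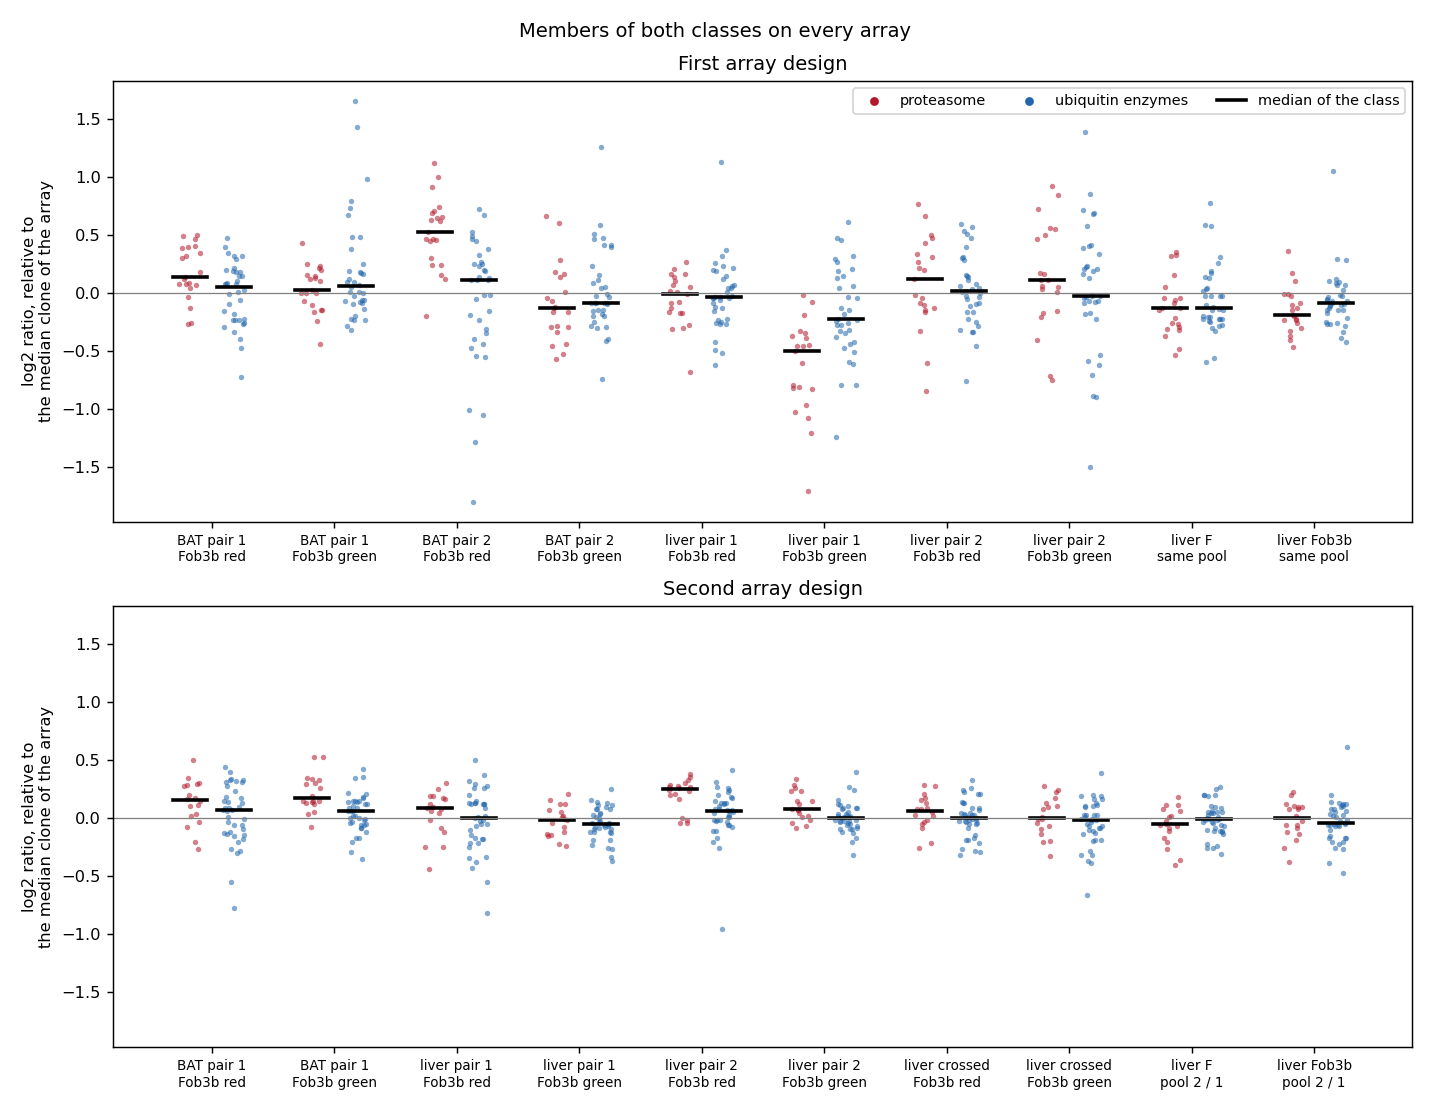
Log2 ratio of each member (points) on every array, with the array on the horizontal axis and black bars at the median of a class. Positive values stand for Fob3b over F if red was divided by green; on the last 2 arrays of the first design 1 pool filled both channels, and on the last 2 of the second pool 2 stands over pool 1. On the BAT pair 2 array with Fob3b in red the proteasome median was 0.53, and on the liver pair 1 array with Fob3b in green it was -0.50.

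On the first design 1 BAT array carried much of the proteasome values. The class median was 0.14 on the pool pair 1 array with Fob3b in red and 0.02 with Fob3b in green, and in pool pair 2 it was 0.53 with Fob3b in red and -0.13 with Fob3b in green. Without the pool pair 2 array with Fob3b in red, 7 of 21 genes stayed above 0 and the median was -0.05, with 1 dye orientation left in that pair. Without both arrays of pool pair 2, 15 of 21 were above 0 and the median was 0.13. In pool pair 2 the dye orientations had the same sign for 6 of 21 proteasome genes and for 27.9% of all genes. As means of a pool pair, 13 of 21 proteasome genes were positive in both pairs and 0 were negative in both. Among all genes 26.2% were positive and 16.3% negative in both, and among the 36 ubiquitin enzymes 10 were positive and 5 negative. There was less of a gap on the second design, where the orientations of pool pair 1 gave medians of 0.16 with Fob3b in red and 0.17 with Fob3b in green. There 14 of 18 proteasome genes and 17 of 39 ubiquitin enzymes were positive on both arrays, beside 38% of all genes.

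**Figure D2:**
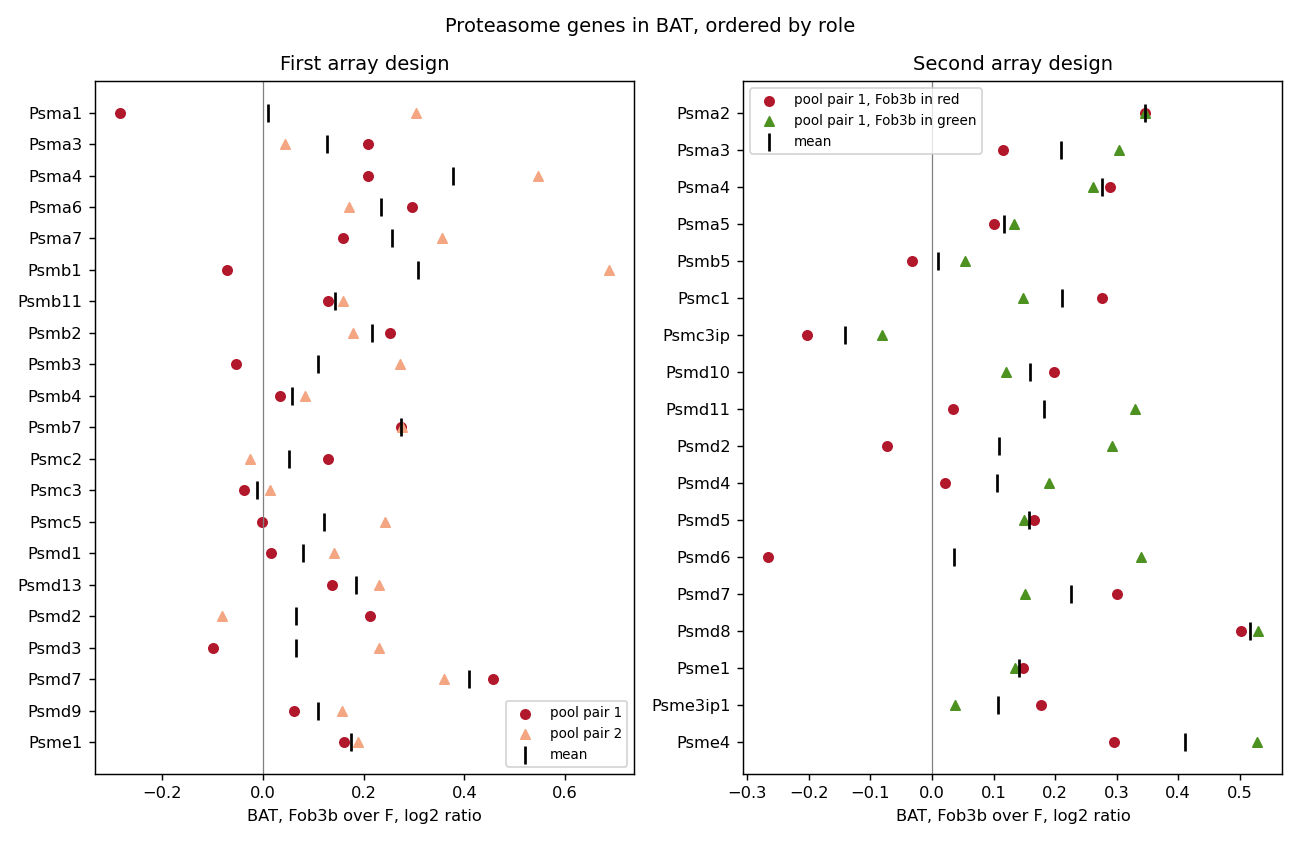
Log2 ratio in BAT (horizontal) of each proteasome gene, ordered by role from alpha subunits at the top to activators at the bottom; points are pool pair means on the first design and single arrays of pool pair 1 on the second, and black bars are means. Psmd7 and Psma4 lay highest on the first design, Psmd8 and Psme4 on the second, and Psmc3ip at -0.14 was the 1 gene of the second design with a mean below 0.

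No member passed the test in BAT on the first design. With limma, 0 of 3838 genes had an adjusted p under 0.05 (0%), and 39 had an unadjusted p under 0.05, or 1.02%. Among the members 1 of 57 did, Psmd7. With BAT fitted alone and with no centring 1 gene passed, and without pool pair 2 of BAT 2 genes passed, none of them a member. Genes positive on all 4 arrays made up 3.41% of all genes, and the members among them were Psma4, Psmd7, Psmd9 and Usp5. No member was negative on all 4, as were 2.79% of all genes.

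Among the alpha subunits of the core, which form the outer rings and gate the channel, all 5 measured on the first design had a BAT mean above 0, and all 4 on the second. Psma4 had log2 ratios of 0.39 and 0.02 in pool pair 1 (Fob3b in red, then in green) and 0.91 and 0.18 in pool pair 2. It was above 0 on every BAT array of the first design, and averaged 0.38 (SE 0.20, unadjusted limma p 0.087). Another Psma4 clone, on the second design, read 0.29 and 0.26 in pool pair 1. Psma2, on the second design alone, had 0.35 on both arrays, a 1.27-fold difference. Psma7 had 2 clones on the first design at 0.28 and 0.23, Psma6 a mean of 0.23, and Psma3 0.13 and then 0.21 on the designs. Psma1 was the lowest alpha subunit at 0.01, from pool pairs at -0.28 and 0.30. Psma5 stood at 0.12 on the second design. With each printing block centred, Psma6 came to 0.03, and the second-design clones of Psma4 and Psma3 to 0.14 and 0.41.

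Of the beta subunits, some of which hold the protease sites, the 6 on the first design ran from 0.06 for Psmb4 to 0.31 for Psmb1. Psmb1 had -0.27 and 0.13 in pool pair 1 and 0.71 and 0.67 in pool pair 2, so its mean came from pool pair 2. Psmb7, which carries the trypsin-like site, had 0.27 and 0.28 in the pool pairs but 1.12 and -0.57 on the arrays of pool pair 2. Psmb2 had a mean of 0.22 and Psmb3 one of 0.11. Psmb11, the beta subunit known from the thymus, read 0.14. Psmb5, which carries the chymotrypsin-like site, was the 1 beta subunit of the second design and had 0.01, from clones at 0.25 and -0.23 that disagreed in sign. The inducible subunits Psmb8, Psmb9 and Psmb10, which interferon brings into the core, were not analysed here.

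The 3 ATPases of the cap on the first design had a BAT median of 0.05, where the 5 alpha subunits had 0.23. Of these ATPases, Psmc5 had 0.12, Psmc2 0.05 and Psmc3 -0.01, the only proteasome gene with a mean below 0. On the second design the 2 BAT arrays of Psmc1 had 0.28 and 0.15, with clone means of 0.27 and 0.16.

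Among the non-ATPase subunits, Psmd7, a scaffold partner of the cap's deubiquitinating subunit, had the highest BAT value of all members on the first design. It read 0.49 and 0.43 in pool pair 1 and 0.12 and 0.60 in pool pair 2, above 0 on all 4 arrays. Its mean was 0.41 (SE 0.18), a 1.33-fold difference with an unadjusted limma p of 0.046 and an adjusted p of 0.9996. The clones of its printing block had a median of 0.26 in BAT, and with each block centred Psmd7 had 0.16. The clone of the second design read 0.30 and 0.15. The assembly chaperone gene Psmd9 was above 0 on all 4 arrays with a mean of 0.11, and Psmd13 had 0.18. Psmd8, a subunit of the cap's lid, was the highest member on the second design. It had 0.50 with Fob3b in red and 0.53 with Fob3b in green, and its 2 clones, in different blocks, had means of 0.50 and 0.53. This was a 1.43-fold difference, short of the 1.5-fold used as the rule of size for a comparison with 1 pool pair. Psmd11, another lid subunit, had 0.18, Psmd5 and Psmd10, both assembly chaperones, 0.16 each, Psmd2 and Psmd4 0.11 each and Psmd6 0.04. The orientations of Psmd6 differed in sign, at -0.27 and 0.34.

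Of the activators, Psme4, the single-chain PA200 known from chromatin and spermatogenesis, had 0.29 and 0.53 in BAT on the second design. Psme1, a subunit of the interferon-induced PA28, read 0.17 and then 0.14 on the designs. Its partner Psme2 was not analysed here. Psme3ip1 had 0.11. Without Psmc3ip and Psme3ip1, all 16 proteasome genes of the second design were above 0 in BAT, with a median of 0.17.

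No member reached 1.5-fold with 1 sign on both BAT arrays of the second design. Over all genes 32 did on the positive side (0.785%) and 27 on the negative side (0.663%). The position of the proteasome in BAT is relative to the median clone. With no centring the median clone itself lay at -0.36 on the second design, and there 2 of 18 proteasome genes and 1 of 39 ubiquitin enzymes were above 0, with medians of -0.21 and -0.33. On the first design the median clone lay at 0.30 before centring, and the medians became 0.39 and 0.29.

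The promoters of some of these genes are shown because the proteasome genes lay on 1 side together in BAT. The table of RefSeq promoters (GRCm38.p6, 250 bases before to 50 after a start) held 73 of the 93 members. The windows below are the 100 bases before the start of Psmd8, Psme4 and Psma2, the highest proteasome genes in BAT on the second design, of the ATPase gene Psmc1, and of Usp24, which lay on the negative side there. Capitals mark a match to CCGGAAG, the core bound by ETS factors, or to CCAAT, the box bound by NF-Y, on either strand. The Psmd8 window (chr7:29180674-29180773, minus strand) holds neither. The Psme4 window (chr11:30771675-30771774, plus strand), the Psmc1 window (chr12:100110102-100110201, plus strand) and the Usp24 window (chr4:106316113-106316212, plus strand) hold the ETS core. The Psma2 window (chr13:14613142-14613241, plus strand) holds the CCAAT box.
Psmd8: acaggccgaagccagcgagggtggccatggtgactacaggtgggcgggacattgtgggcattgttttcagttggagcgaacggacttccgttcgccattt
Psme4: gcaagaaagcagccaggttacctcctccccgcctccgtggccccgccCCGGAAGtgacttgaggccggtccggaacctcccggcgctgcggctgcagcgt
Psma2: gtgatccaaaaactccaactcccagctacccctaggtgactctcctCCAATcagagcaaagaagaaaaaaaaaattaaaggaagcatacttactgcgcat
Psmc1: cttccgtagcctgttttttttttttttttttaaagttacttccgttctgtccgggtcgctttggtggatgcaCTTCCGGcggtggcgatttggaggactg
Usp24: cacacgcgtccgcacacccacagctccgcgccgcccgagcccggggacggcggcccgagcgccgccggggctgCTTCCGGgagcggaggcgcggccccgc

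Over the whole promoter entries, CCGGAAG on either strand was in 12 of 31 promoters of proteasome genes (38.7%) and in 13 of 53 of ubiquitin enzymes (24.5%). The 12 promoters belong to 11 genes, among them Psmc3ip and Psme3ip1, which are not subunits. It was in 18.2% of the promoters of all genes on the arrays. CCAAT was in 41.9%, 18.9% and 37.9% of the same sets. The core TGACNNNGC, the antioxidant response element bound by Nrf factors, was in 9.68%, 20.8% and 14.1%. None of the motifs contains another, and a match describes these letters alone.

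In BAT the ubiquitin enzymes lay on both sides. Of the 12 conjugating enzymes on the first design 9 were above 0, with a median of 0.05, and of the 24 Usp genes 12 were, with a median of 0.0018. On the second design 8 of 15 and 14 of 24 were above 0, with medians of 0.03 for both. Usp5, which takes apart free ubiquitin chains, had 0.48, 0.05, 0.45 and 0.05 on the 4 BAT arrays of the first design, a mean of 0.26 (SE 0.19, unadjusted limma p 0.208). Usp30, a deubiquitinating enzyme of mitochondria, had 0.25 and was above 0 on 3 of 4. Usp14, which works on the proteasome cap itself, had 0.17 from clones at 0.12 and 0.22. The lowest were Usp38 at -0.13 and Usp39 and Usp1 at -0.12 each. Usp36 also had -0.12, from pool pairs at 0.41 and -0.64.

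On the second design the BAT values of ubiquitin enzymes spread from -0.47 to 0.40. Usp22, the deubiquitinating subunit of the SAGA chromatin complex, had 0.44 and 0.35. Ube2o, a large enzyme with both conjugating and ligase activity, had 0.40 and 0.17, and Usp28 had 0.33 and 0.21. On the negative side Usp35 had -0.78 and -0.17, Usp25 -0.55 and -0.29 and Usp24 -0.30 and -0.35. Usp35 came to -0.18 with each printing block centred and Usp25 to -0.29, while Usp24 stayed at -0.33. Ube2t, the conjugating enzyme of the Fanconi anaemia pathway, had a mean of -0.16, as did Usp4. Ube2k had clones at -0.47, 0.19 and 0.06 and a mean of -0.07. Of the 39 enzymes, 10 were negative on both arrays, and 25.5% of all genes were.

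Several Usp genes of the first design followed the dye in BAT. With Fob3b in red, then in green, Usp37 had -0.72 and 1.66 in pool pair 1 and -1.80 and 0.41 in pool pair 2. Usp46 had -0.48 and 1.44, then -1.05 and 0.51, and Usp48 -0.40 and 0.98, then -1.29 and 0.46. Ube2f, the conjugating enzyme for NEDD8, had -0.24 and 0.73, then -1.01 and 1.26. All 4 were negative with Fob3b in red and positive with Fob3b in green in both pool pairs, so their means from -0.11 to 0.19 are small differences of large values. The second-design clones of Usp37 and Usp48 read -0.13 and 0.11, and 0.06 and -0.02, in BAT.

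In liver on the first design the proteasome genes lay mostly below 0, and the pool pairs differed. Of 21 genes 7 had a mean above 0, with a median of -0.07, against 16 of 36 ubiquitin enzymes with -0.04 and 45.4% of all genes with -0.02. With each printing block centred, 5 proteasome genes and 12 ubiquitin enzymes were above 0, with medians of -0.14 and -0.06. The proteasome median was -0.28 in pool pair 1 and 0.12 in pool pair 2. In pool pair 1 it was -0.50 with Fob3b in green and -0.01 with Fob3b in red. Without the array with Fob3b in green, 14 of 21 were above 0 with a median of 0.07. Without pool pair 1 of liver 17 were, and without pool pair 2 of liver 1 was. Leaving out a pair moved the wider sets the same way by less, so the swing was not confined to the proteasome. Of all 3838 genes, 2319 lay above 0 without pair 1 (median 0.06) and 1561 without pair 2 (median -0.08). For the ubiquitin enzymes these were 19 (median 0.02) and 14 of 36 (median -0.12). Of the proteasome genes Psmd3 alone was positive in both pool pairs, as were 20.9% of all genes. Psma4, Psma6, Psmb3 and Psmd7 were negative in both, as were 19.8%. On the arrays with 1 liver pool in both channels, where no line difference exists, the proteasome median was -0.13 for the F pool and -0.19 for the Fob3b pool. The ubiquitin enzymes had -0.13 and -0.09 there, and all genes -0.03 and -0.03.

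No member passed the test in liver on the first design. With limma, 0 of 3838 genes had an adjusted p under 0.05 (0%) and 103 had an unadjusted p under 0.05, or 2.68%, with 0 of the 57 members among them. Without liver pool pair 2, 15 genes passed, none of them a member. Psma3 had the lowest mean, -0.49 (SE 0.24, unadjusted limma p 0.061). Its values were -0.31 and -1.71 in pool pair 1 and 0.22 and -0.16 in pool pair 2, so the array at -1.71 set most of the mean. Psmb1 had -0.41, from -0.69 and -1.03, then -0.85 and 0.92. Psma6 was below 0 on all 4 arrays, with -0.18, -0.39, -0.16 and -0.72 and a mean of -0.36 (SE 0.19), and its block-centred value was -0.16. It was the 1 proteasome gene with 1 sign on all 4 liver arrays, beside 3.41% of all genes that were negative on all 4.

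Among the ubiquitin enzymes Usp21, a deubiquitinating enzyme linked to histone H2A, had the highest liver value of the first design. It read -0.03 and 0.30 in pool pair 1 and -0.03 and 1.39 in pool pair 2, a mean of 0.41 (SE 0.20, unadjusted limma p 0.069) that came mostly from the array at 1.39. Usp24 and Usp53 were positive on all 4 arrays, with means of 0.24 and 0.20, as were 4.85% of all genes. With each printing block centred, both had 0.04. Usp53 had clones at 0.15 and 0.26, while its clone of the second design had a liver mean of -0.01. Ube2a, an enzyme of DNA damage tolerance, Ube2q1 and Usp19 were negative on all 4, with means of -0.20, -0.24 and -0.32, and block-centred values of -0.10, -0.13 and -0.11. Ube2v2, the inactive partner of Ube2n, had -0.38, from 0.12, -0.03, -0.11 and -1.50. Block-centred, Ube2v2 had -0.18 and Usp21 0.24. Ube2d3 stood at -0.35 from pool pairs at -0.88 and 0.19. Clones of 1 enzyme could differ in sign: Ube2l3 had -0.43, 0.14, -0.11 and -0.15, Usp15 0.31 and -0.17, and Usp9x 0.12 and -0.21.

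The tissues were compared in the same fit of the first design. With limma, 0 of 3838 genes had an adjusted p under 0.05 for liver minus BAT (0%), and 113 had an unadjusted p under 0.05 (2.94%). Among the members 3 of 57 did, all of them proteasome genes with a lower value in liver. Psma4 differed by -0.70 (SE 0.29, unadjusted limma p 0.031), Psmd7 by -0.64 (SE 0.26, p 0.029) and Psma6 by -0.60 (SE 0.26, p 0.042), with adjusted p of 0.998 each. With each printing block centred the liver and BAT values came closer: Psma4 had -0.29 and 0.27, Psmd7 -0.09 and 0.16 and Psma6 -0.16 and 0.03. Psmb1 differed by -0.72 (SE 0.35, unadjusted limma p 0.063) and Psma3 by -0.62 (SE 0.34, p 0.091). Of the ubiquitin enzymes none of 36 had an unadjusted p under 0.05; Ube2d3 had -0.52, Usp19 -0.50 and Usp21 0.47.

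**Figure D3:**
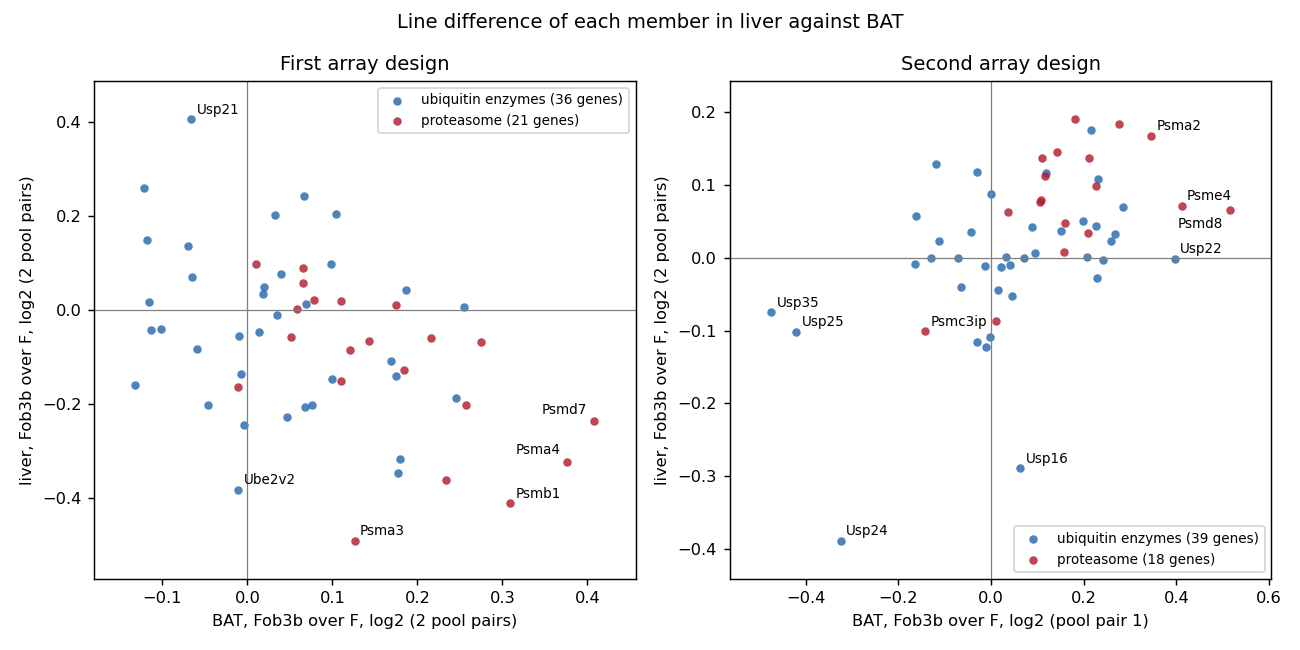
Log2 ratio of each member in liver (vertical) against BAT (horizontal), Fob3b over F if red was divided by green, with 1 point per gene. On the first design Psmd7, Psma4 and Psmb1 lie to the right and below 0 in liver; on the second, most proteasome genes lie above 0 on both axes and Usp24 lies below 0 on both.

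In liver on the second design the proteasome genes lay on the positive side by small amounts. Of 18 genes 16 had a mean above 0, with a median of 0.08, against 22 of 39 ubiquitin enzymes with 0.00022 and 51.8% of all genes with 0.01. In both pool pairs 11 of 18 proteasome genes were positive and 2 negative. Among all genes 29.8% were positive and 25.9% negative in both, and 12 and 7 of the 39 ubiquitin enzymes were. The proteasome median was 0.08 and -0.01 in pool pair 1 and 0.25 and 0.08 in pool pair 2, with Fob3b in red and in green. On the crossed-pool arrays it was 0.06 with Fob3b in red and -0.00042 with Fob3b in green, and for pool 2 over pool 1 it was -0.05 in the F line and -0.0019 in the Fob3b line. With no centring, where the median clone lay at -0.37, 0 of the 18 proteasome genes and 0 of the 39 ubiquitin enzymes were above 0, with medians of -0.29 and -0.37.

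With limma, 11 of 4075 genes had an adjusted p under 0.05 in liver on the second design (0.27%), and none was a member. At an unadjusted p under 0.05 there were 407 genes (9.99%) and 4 of 57 members: Psma4, Psmd11, Usp16 and Usp24. The count of genes past the threshold fell to 0 with all arrays brought to 1 spread, with each array counted as a replicate and with the crossed-pool arrays added. It was 6 with clones fitted, 27 with printing blocks centred and 67 with no centring.

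Usp24, a large deubiquitinating enzyme, had the smallest p of the members. It read -0.55 with Fob3b in red and -0.06 in green in pool pair 1, and -0.96 and 0.01 in pool pair 2. The arrays with Fob3b in red were thus low and those with Fob3b in green were near 0. The mean was -0.39 (SE 0.08), a 1.31-fold difference with an unadjusted limma p of 0.00056 and an adjusted p of 0.059. It was -0.26 with each printing block centred, and the crossed-pool arrays read -0.14 with Fob3b in red and 0.10 in green. With no centring Usp24 passed at an adjusted p of 0.037. In BAT pool pair 1 on the same design it lay at -0.32, with both arrays low, while on the first design its clones had 0.25 and 0.23 in liver and 0.12 and 0.01 in BAT.

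Usp16, which takes ubiquitin off histone H2A, had -0.82 and -0.34 in pool pair 1 and 0.17 and -0.17 in pool pair 2. Its mean of -0.29 (SE 0.12, unadjusted limma p 0.029, adjusted p 0.423) came from pool pair 1, and the crossed-pool arrays read 0.33 with Fob3b in red and -0.29 in green. Psmd11 had 0.04 and 0.21, then 0.23 and 0.28, above 0 on all 4 arrays, and averaged 0.19 (SE 0.08, unadjusted limma p 0.036). Its crossed-pool arrays differed in sign, at -0.26 with Fob3b in red and 0.11 in green. Psma4 had 0.25 and 0.02, then 0.24 and 0.23, and averaged 0.18 (SE 0.08, unadjusted limma p 0.040), and the crossed-pool arrays read 0.16 and 0.22. Psmd2 was the third proteasome gene positive on all 4 arrays, at 0.14, beside 9.99% of all genes. Psma2 had 0.17, Psme1 and Psmc1 0.14 each, and Psma5 and Psmd7 0.11 and 0.10. Usp40 was the 1 ubiquitin enzyme positive on all 4 arrays, at 0.11, while its clone of the first design had a liver mean of -0.20. With each printing block centred, Psmd11 had 0.17, Psma4 and Psma5 0.16 each, Psmc1 0.12, Psma2 0.09 and Psme1 0.07. Psmd2 came to 0.06, Usp40 to 0.03 and Psmd7 to -0.0048. Psmb5 at -0.09 and Ube2j2, a conjugating enzyme of the endoplasmic reticulum, at -0.12 were negative on all 4, as were 8.96% of all genes, and the Psmb5 clones disagreed at 0.10 and -0.28. Usp10 at 0.18 was the highest ubiquitin enzyme.

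**Figure D4:**
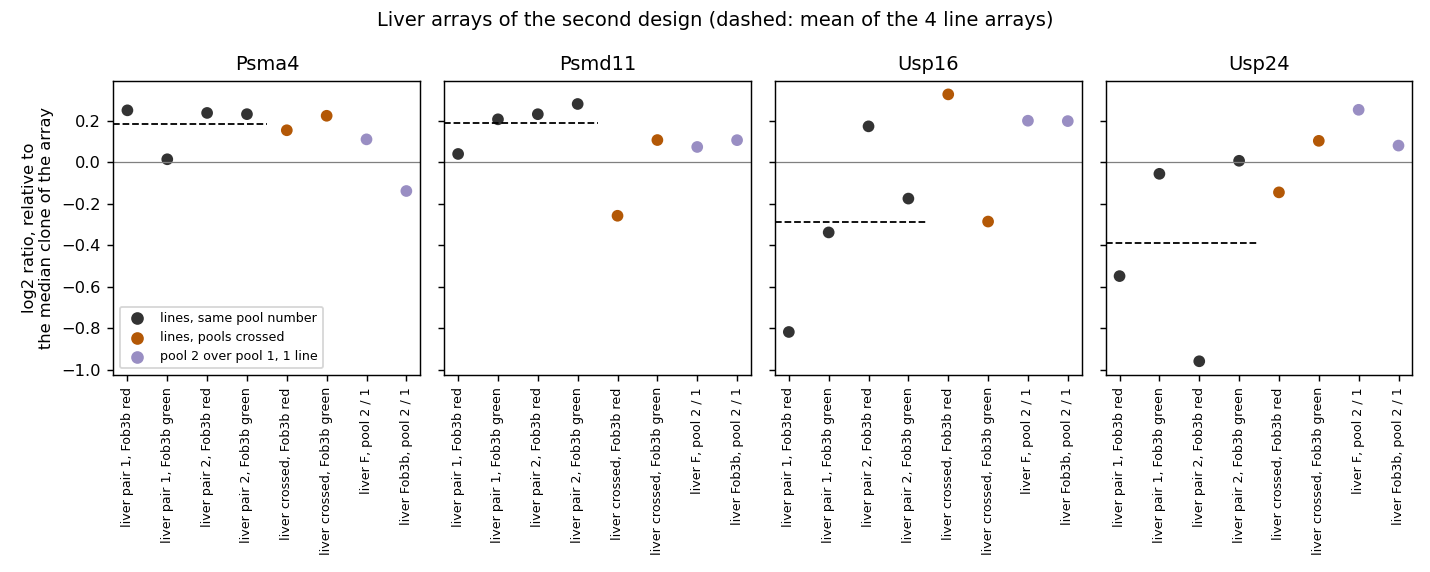
Log2 ratio (vertical) of Psma4, Psmd11, Usp16 and Usp24 on the 8 liver arrays of the second design, with dashed lines at the mean of the 4 line arrays. Psma4 lay above 0 on all line arrays and both crossed-pool arrays, whereas Usp24 was low with Fob3b in red and near 0 with Fob3b in green.

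The genes on both designs were read by different clones from the same pools, so the readings share their RNA. In BAT pool pair 1, the first and second designs gave 0.21 and 0.28 for Psma4, 0.46 and 0.23 for Psmd7, 0.21 and 0.21 for Psma3, 0.21 and 0.11 for Psmd2 and 0.16 and 0.14 for Psme1. All 5 proteasome genes were thus positive on both. In liver the means were -0.32 and 0.18 for Psma4, -0.24 and 0.10 for Psmd7, -0.49 and 0.03 for Psma3, 0.06 and 0.14 for Psmd2 and 0.01 and 0.14 for Psme1. Psma4, Psmd7 and Psma3 therefore had opposite signs on the designs in liver. With each printing block centred, Psmd7 had -0.09 and -0.0048 and no longer differed in sign. Psma4 still did at -0.29 and 0.16, and Psma3 at -0.51 and 0.08. Of the ubiquitin enzymes in BAT pool pair 1, Ube2l3 had 0.15 and 0.24 and Ube2d3 0.28 and 0.15, whereas Usp24 had 0.19 and -0.32 and Usp8 -0.12 and 0.23. Block-centred, the second-design values were 0.42 for Ube2l3 and 0.07 for Usp8. Ube2d2a had -0.02 and 0.07, Ube2q1 -0.0050 and -0.13, and Usp47 0.01 and 0.09. In liver Ube2l3 had means of -0.14 and -0.0033, Ube2d3 -0.35 and 0.04, Usp24 0.24 and -0.39 and Usp8 0.14 and -0.03. Usp1, Usp3, Usp16, Usp37, Usp38, Usp40, Usp48, Usp53 and Usp9x were the other 9 shared enzymes. Neither they nor any other member reached 1.5-fold in a tissue mean of either design. Usp37 had 0.47 and -0.69 in the BAT pool pairs of the first. Liver means differed in sign between the designs for Usp1 (0.15 and -0.11), Usp40 (-0.20 and 0.11) and Usp53 (0.20 and -0.01). They also did for Usp38 (-0.16 and 0.04) and Usp9x (-0.05 and 0.02). Usp3, Usp16, Usp37 and Usp48 were below 0 in liver on both designs. With each printing block centred, Usp1 and Usp9x were above 0 in liver on both.

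Other genes of the pathway, taken from lists of its parts, gave no call in either tissue. Of the assembly and regulation list, the first design held 5 genes and the second 7, and 4 and 5 of them lay above 0 in BAT. Among all genes 60.2% and 57.5% did. The list's medians were 0.23 and 0.05. With each printing block centred, 3 and 4 of the list were above 0, with medians of 0.03 and 0.02. Nfe2l1, the transcription factor known to drive proteasome genes when proteasome activity is low, had 0.44 in BAT and -0.34 in liver on the first design and 0.22 and -0.17 on the second. Pomp, the maturation chaperone of the core, had 0.27 in BAT and -0.27 in liver on the first design. Psmg4, an assembly chaperone, had -0.49 in BAT on the second design. On the first design Psmg2 was the lowest of the list in BAT, at -0.18, and Psmg3 the highest in liver, at 0.22. In the list of p97 and shuttle factors, which pull substrates out and bring them to the proteasome, 6 of 8 lay above 0 in BAT on the second design and 8 of 8 in liver, with medians of 0.23 and 0.10. Vcp, the p97 ATPase itself, had 0.52 in BAT and 0.10 in liver there, but -0.02 and -0.06 on the first design, where 5 of 9 of the list were above 0 in BAT and 4 of 9 in liver, with medians of 0.03 and -0.01. Of the cullin ligase list 15 of 19 were above 0 in BAT on the first design and 4 of 13 on the second, from Fbxo7 at 0.32 to Btrc at -0.35. With each printing block centred, 14 of 19 and 7 of 13 were. Of the other E3 ligases 11 of 21 and 17 of 25 were above 0 in BAT, with medians of 0.01 and 0.07. The remaining deubiquitinating enzymes had 5 of 9 and 6 of 9 above 0. The E1 enzymes and the ubiquitin-like modifiers had 2 or 3 measured genes each per design, with means from -0.11 to 0.23. Antigen presentation and interferon genes had 4 and 2, from -0.26 for B2m in liver to 0.36 for Irf1 in BAT.

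Markers of other cell types were few on these arrays. Skeletal muscle markers had 2 of 16 genes measured on each design. In BAT Tpm2 and Actn3 lay at -0.58 and -0.47 on the first, and Tpm2 and Mylpf at 0.74 and 0.69 on the second. Brown adipocyte markers had 0 of 12 genes on the first design. The second held 3, and there Elovl3, Fabp3 and Prdm16 had -0.05, -0.11 and -0.15 in BAT. Macrophage and leukocyte markers had 1 and 3 of 16, from -0.18 to -0.01 in BAT. The 1 of the first design, Lyz2, was below 0 on all 4 liver arrays, averaging -0.44 (SE 0.19, unadjusted limma p 0.038), and the 3 of the second had -0.04 to 0.04 in liver. Hepatocyte markers had 4 of 15 on the first design, all below 0 in liver, from -0.14 for Fga to -0.74 for Alb. Adipocyte markers had 2 and 1 of 12, from -0.25 for Lpl to 0.11 for Pnpla2 in BAT. Endothelial and erythroid markers had 1 and 2 of 9. In liver Cdh5 had 0.64 on the first design, or 0.36 with each printing block centred. On the second design Hbb-b1 had -0.23 and Alas2 -0.06 in liver. The part of these cell types in the values of the members was not tested.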

How the data were processed

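Arrays with 2 channels, spotted with cDNA clones, had measured liver and BAT RNA, 10 per design. The authors deposited 1 ratio of the dyes for each spot on a log scale, taken here as log2 from the range of the values. Its numerator is not stated, and earlier steps were not given in the sources used here. Where a description and the channel labels differed (the BAT arrays of the second design, described as F against F, and the Fob3b array with 1 pool in both channels), the channel labels were used.

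The median over clones was subtracted from each array. Both spots of a clone (160 rows apart in a printing block of 360) and then all clones of a gene were averaged, and ratios were turned to Fob3b over F. The dye orientations of a pool pair were averaged before the fit. Genes were named from the annotation of the clones: 4749 clones of the first design had 1 gene, 227 several and 2704 none, and for the second these were 4855, 274 and 2551. Clones with several or no genes were left out. All 3838 and 4075 genes of a design were fitted with limma 3.58.1 (R 4.3.3). Tissue was the factor, eBayes moderated the variances, and two-sided p values were adjusted by Benjamini-Hochberg over all genes, with 0.05 as the threshold. The 1 BAT pool pair of the second design entered the fit and was not tested. The median SE was 0.196 for the first design and 0.0796 for the second. The fit was run before use on simulated independent noise with known changes added. That simulation held no dye or printing block effects, so it does not show how the fit handles them.

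The named members were, per tissue, design, class and side, up to 6 with 1 sign on all arrays, filled up to 3 by the largest mean, with those on both designs, the highest and lowest of each role, those induced by interferon and those whose clones disagreed. Of each pathway list the highest and lowest were to be named, and the text gives them for some lists alone. Usp37, Usp46, Usp48 and Ube2f as followers of the dye, and Vcp, Pomp, Psmg4 and further members given with the groups, were chosen after their values were seen. The members and the lists were chosen with earlier results of these data known. The alternatives were no centring, printing blocks centred, scaled arrays, every array as a replicate, clones fitted, discordant spots left out, a pool pair left out, the replicate block, tissues fitted alone and crossed-pool arrays added.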

Additional observations from a re-analysis of the deposited data

Results flagged for a closer look

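In 8 of 177 sets of 4 arrays, 171 of single members and the others of the class medians, 1 array stood far from the other 3 by Dixon's test at the 95% level. Chance gives about 1 in 20 such sets. In liver on the first design, Ube2v2 had -1.499 in pool pair 2 with Fob3b in green, where the other 3 arrays had -0.114 to 0.117. In the same set of arrays Usp24 had 0.7138, also in pool pair 2 with Fob3b in green, and the others had 0.042 to 0.148. On that array Ube2c had 0.8541 and Usp5 -0.5323, where the others had -0.348 to -0.269 and 0.142 to 0.231. Usp46 had -0.3412 in pool pair 2 with Fob3b in red, and the others had 0.332 to 0.456. In liver on the second design, Psma4 had 0.0151 in pool pair 1 with Fob3b in green, and the others had 0.233 to 0.251. On that array Usp38 had -0.07943, where the others had 0.0718 to 0.0902. Usp34 had 0.1966 in pool pair 2 with Fob3b in red, and the others had -0.0142 to 0.0075.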

How the results depend on the processing

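No member passed in any comparison under any setting run, except Usp24 in liver on the second design with no centring, where 1 member passed. Genes called in BAT on the first design were 1 with each tissue fitted alone and 1 with no centring, and 0 to 2 with a pool pair left out. In liver they were 0 to 15 on the first design with a pool pair left out. On the second design they were 0 with scaled arrays, with crossed-pool arrays added and with every array as its own replicate, 6 with clones fitted, 27 with blocks centred and 67 with no centring.

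With no centring, which moves all clones of an array together, the proteasome and ubiquitin enzyme medians became 0.39 and 0.29 in BAT on the first design, -0.21 and -0.33 in BAT on the second and -0.29 and -0.37 in liver on the second. Genes above 0 were then 36 ubiquitin enzymes in BAT on the first design, 1 proteasome gene and 8 ubiquitin enzymes in liver on the first, 2 and 1 in BAT on the second and 0 and 0 in liver on the second. The same shift turned Psma2 to -0.019, Psma3 to -0.16, Psma4 to -0.090, Psma5 to -0.25, Psmc1 to -0.15, Psmd7 to -0.14, Psme1 to -0.22 and Psme3ip1 to -0.26 in BAT on the second design. It also turned Ube2d2a to -0.29, Ube2d3 to -0.21, Ube2e2 to -0.11, Ube2l3 to -0.12, Ube2o to -0.081, Usp28 to -0.10, Usp38 to -0.28, Usp40 to -0.14, Usp47 to -0.27 and Usp8 to -0.14 there. In liver on the second design it turned Psma4 to -0.18, Psmd11 to -0.18, Psmd2 to -0.23 and Usp40 to -0.26.

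With a pool pair left out, the proteasome median ran from 0.13 to 0.19 in BAT and from -0.28 to 0.12 in liver on the first design. There 15 to 19 and 1 to 17 of 21 genes were above 0. The liver median of all genes on that design ran from -0.08 to 0.06, the same way by less. The ubiquitin enzyme median ran from 0.027 to 0.037 in BAT on the first design and from 0.00089 to 0.026 in liver on the second. Without the BAT pool pair 2 array with Fob3b in red, chosen after seeing the data, the medians were -0.048 and 0.0057, with 7 proteasome genes above 0. Without the liver pool pair 1 array with Fob3b in green, also chosen after seeing the data, 14 were. In BAT on the second design, scaled arrays gave medians of 0.13 and 0.025, centred blocks 0.18 and -0.00029, and the proteasome without Psmc3ip and Psme3ip1, chosen after seeing the data, 0.17.

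With the pool number as a replicate block, 0 genes and 0 members were called in each comparison of the first design. The deviations of liver and BAT pool pair 1 correlated at 0.37 over genes, a single correlation that does not show a pairing. On the second design no degrees of freedom remained for a block. Another background correction and a filter on dim probes were not run, since they need intensities. Over all settings, 162 values of counts and medians were classed as the same as in the main analysis and 38 as moved. Of the values of single members not listed above as turned, 760 were classed as the same and 186 as moved by more than the spread of the pool pairs. The members listed as turned had 1 sign on all arrays. For other members these classes do not show whether the sign was kept. The number of arrays limits what small differences show, since the median SE of 0.196 on the first design exceeds most member means.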
